A study of Mus musculus with 2 samples.

Results

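The regions described here were 1030 elements of 10531 that a STARR-seq experiment in activated mouse CD4 T cells listed. They lay in introns, away from promoters, and lacked the main recognition sites of the AP-1 and interferon response factors. An element belonged to the set when its midpoint lay over 1000 bp from every transcription start site (TSS), in no exon but inside a transcript of the GENCODE M21 basic annotation. Its GC content had to be under 60% and its soft-masked (repeat) share under 50%. Neither strand could hold the 7-base AP-1 consensus TGACTCA or TGAGTCA, nor an interferon-stimulated response element (ISRE), taken as 2 GAAA cores with any 2 bases between them. The rule used position and sequence, not the measured values, and all 1030 members are counted below without a further filter. Of 2019 intronic distal elements that passed the GC and repeat limits, 710 were set aside for AP-1 and 279 more for ISRE.

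STARR-seq measures enhancer activity by placing DNA fragments in the transcribed part of a reporter plasmid, so that an active fragment raises the amount of its own RNA. The study had a single group with 2 biological replicates, which the labels record as distinct biosamples under a shared donor entry. Both were primary naive CD4 T cells of strain C57BL/6NJ, transiently transfected so that the plasmids stayed episomal. All cells were treated for 3 days with anti-CD3e, anti-CD28, anti-Interleukin-4, anti-Interferon-gamma and Interleukin-2, and no untreated group was compared. Doses of anti-CD3e (0.25 µg/mL) and anti-CD28 (1.0 µg/mL) were recorded for replicate 2 alone. Those of anti-Interferon-gamma (2.0 µg/mL) and Interleukin-2 (10.0 ng/mL) were recorded for replicate 1 alone, so equal doses could not be checked. The age of the animals is given as unknown. Plasmids outside the chromosomes do not carry the chromatin of the native locus, so a value describes the fragment and not the gene around it.

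The authors deposited 1 effect, 1 p-value and 1 adjusted p-value per element, with replicates pooled and positions on mm10. The effect was taken as a log2 value, although its base and the direction of its contrast are not given in the sources used here. A value above 0 is called positive. Values per replicate, read counts and the input library were not analysed here, so the depth is unknown and no replicate spread can be given. Every 95% interval below, exact Clopper-Pearson for shares and binomial order-statistic for medians, covers the spread between elements alone. Elements are not replicates, no test between classes was made, and differences are descriptions. No RNA level of any gene was measured here, so the labelled cell type could not be checked against marker genes.

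Introns hold many enhancers, short stretches of DNA on which transcription factors assemble and act on promoters at a distance. In activated T cells the receptor signal raises AP-1, NFAT and NF-kB factors, which work beside lineage factors of the RUNX and ETS families, while Interleukin-2 acts through STAT5. Members lack canonical AP-1 and ISRE sites by rule, so the other sites they hold, and the genes they lie in, are what their sequences can show.

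Sequences of elements at both ends of the range of effects are shown first, on the plus strand of mm10. Lower case is used throughout and does not mark repeats here. An element in intron 1 of Gramd1b is shown for its large effect without a near-identical copy elsewhere. The gene encodes a sterol transfer protein of the endoplasmic reticulum. The central 300 bases of the element hold no match to the motifs marked in the sequences that follow. Of the whole element, 40.3% was soft-masked.
Gramd1b element, centre at chr9:40482463-40482762 (effect 4.92): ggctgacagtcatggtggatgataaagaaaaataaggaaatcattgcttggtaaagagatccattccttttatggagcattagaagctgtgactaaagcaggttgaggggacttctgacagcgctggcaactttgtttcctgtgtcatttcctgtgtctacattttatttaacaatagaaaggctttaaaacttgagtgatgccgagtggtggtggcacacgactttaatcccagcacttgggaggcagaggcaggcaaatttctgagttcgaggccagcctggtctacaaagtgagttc

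The lowest effects were shown by elements of predicted noncoding genes. Capitals mark a match to the NR4A site in the first.
Gm48099 element at chr14:19279176-19279375 (effect -2.58): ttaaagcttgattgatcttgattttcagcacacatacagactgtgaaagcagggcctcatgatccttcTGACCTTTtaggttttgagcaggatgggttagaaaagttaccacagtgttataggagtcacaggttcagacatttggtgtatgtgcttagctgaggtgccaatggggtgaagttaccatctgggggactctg
Gm36642 element at chr15:25545826-25545900 (effect -2.50): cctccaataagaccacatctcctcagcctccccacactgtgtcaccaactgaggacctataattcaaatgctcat
Members with large effects in 2 of the T cell gene lists described further on are shown because they stand for loci of T cell function. Capitals mark matches to the RUNX, ETS, NFAT, NF-kB, CRE, STAT, TCF/LEF, GATA, NR4A or full p53 motifs, here STAT in Cx3cr1 and NFAT in Tnfsf8.
Cx3cr1 element, centre at chr9:120002001-120002300 (effect 2.80): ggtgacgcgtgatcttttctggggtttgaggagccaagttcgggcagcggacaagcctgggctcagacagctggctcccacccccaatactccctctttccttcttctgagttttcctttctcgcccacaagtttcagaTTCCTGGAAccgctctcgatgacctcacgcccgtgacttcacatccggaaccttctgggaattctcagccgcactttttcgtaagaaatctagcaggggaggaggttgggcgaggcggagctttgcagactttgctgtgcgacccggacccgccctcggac
Tnfsf8 element, centre at chr4:63842251-63842550 (effect 2.91): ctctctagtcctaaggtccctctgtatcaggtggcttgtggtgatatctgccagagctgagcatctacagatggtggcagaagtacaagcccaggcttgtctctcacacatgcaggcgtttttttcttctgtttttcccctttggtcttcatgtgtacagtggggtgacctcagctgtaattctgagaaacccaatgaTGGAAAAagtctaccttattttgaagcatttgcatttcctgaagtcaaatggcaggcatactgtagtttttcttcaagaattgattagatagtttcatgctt

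Most members were positive. Of 1030 members, 911 (88.4%, 95% interval 86.3 to 90.3) had an effect above 0, against 51.3% of all listed elements, and 119 were negative. The list holds elements at an adjusted p of at most 0.01, which were 9.18% of the 114722 tests that the deposited adjustment implies. The median effect was 1.33 (1.28 to 1.38) in positive members, which ranged from 0.61 to 7.17. It was -1.25 (-1.34 to -1.15) in negative members, which ranged from -2.58 to -0.79. Absolute effects reached 2 or more in 209 members (20.3%), compared with 22.8% of the whole list. Intergenic elements under the same sequence limits were alike, with 87.5% positive (85.1 to 89.6) of 873 and a positive median of 1.38 (1.33 to 1.44). Intronic elements with AP-1 were 90.3% positive (87.9 to 92.4) of 710 with a positive median of 1.18 (1.12 to 1.22), and those with ISRE were 98.6% positive (96.4 to 99.6) of 279 with a positive median of 1.34 (1.24 to 1.42).

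**Figure D1:**
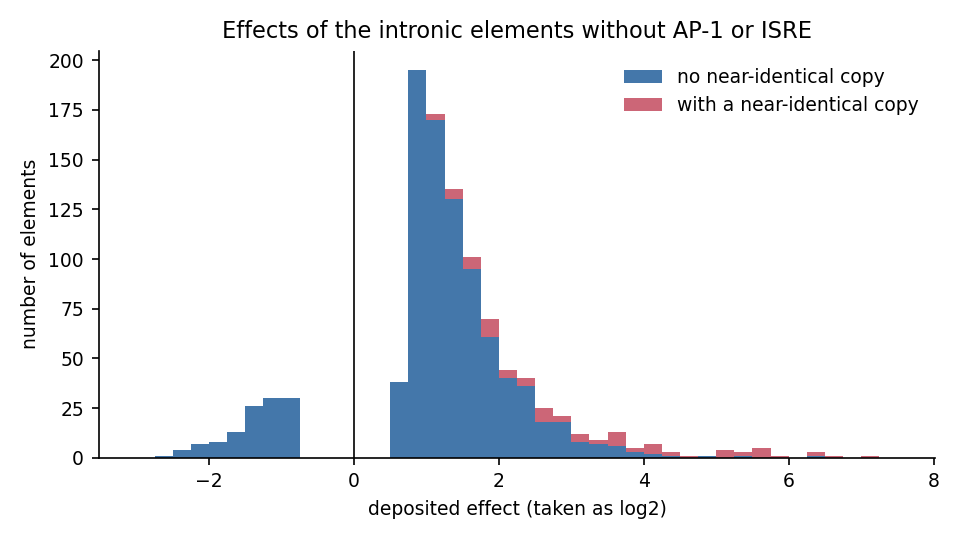
Number of elements (y axis) by deposited effect, taken as log2 (x axis, bins of 0.25), for the 1030 intronic elements without AP-1 or ISRE. The 80 elements with a near-identical copy elsewhere in the genome, stacked in red, are all positive and hold most of the effects of at least 4, while the 950 without a copy, in blue, hold all 119 negative ones.

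The highest effects lay mostly in multi-copy sequence. A near-identical copy, at least 95% identity over at least 80% of the element elsewhere in the genome, was found for 80 members, all of them positive. Their median effect was 2.86 (2.47 to 3.55), against 1.27 (1.20 to 1.32) for the 831 positive members without a copy. Of 30 members with an effect of at least 4, 24 had a copy. The largest of them were 7.17 in AC174780.1, 6.72 in Gm2237, 6.44 in A530032D15Rik and 6.39 in Sp140, which encodes a nuclear body protein of leukocytes. Reads of such elements may map to more than 1 locus, and how the authors treated them is not given in the sources used here.

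Among members without such a copy, several of the largest fell just short of the copy rule. An element in intron 3 of Gm7247 had 4.29 (chr14:51483001-51483625), with another match of 94.8% identity over 79.4% of its length. An element in intron 14 of Grik2, which encodes a kainate receptor subunit, had 4.05 (chr10:49151501-49151825), with a match of 94.1% over 99.1%. The element in intron 1 of Mthfsl had 3.87 (chr9:88718201-88718400), with a match of 93.9% over its whole length. At the looser limit of 80% identity over 50% of the length, 4 of the 10 largest elements and 126 of all members had another match. The looser limit was chosen after the data were seen.

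Other elements among the 10 largest had no match at the looser limit. An element of 225 bp in intron 11 of Ppp1r9a, which encodes the actin-binding protein neurabin, had 4.09 (chr6:5129801-5130025). One in intron 7 of Tenm3, a cell adhesion receptor of the teneurin family, had 3.93 (chr8:48342801-48343100) and lay 234 bp from an exon. Intron 5 of Ick, which encodes a kinase of primary cilia, held an element of 3.82 with the smallest adjusted p-value of these 10, 3e-13 (chr9:78149701-78150125). Intron 1 of Armc8, a subunit of a ubiquitin ligase complex, held one of 3.72 (chr9:99560451-99560850). Soft-masked shares were 46% for Armc8, 40.3% for Gramd1b, 32.5% for Ick, 10.2% for Ppp1r9a and 7.67% for Tenm3. The median over all members was 9.83%.

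The negative members were fewer and spanned a smaller range. Their median deposited adjusted p was 0.0046, against 0.00023 in positive members, so they lay nearer the listing limit of 0.01. Gm48099 held 2 of the lowest 5, at -2.58 and -2.38, both in its first intron, and both had a match at the looser limit (94.9% identity over 98.5% for the first). The element of Gm36642 had -2.50, was 75 bp wide and also had a match at the looser limit (80% identity over 92%). The element in intron 3 of Timp2, which encodes an inhibitor of matrix metalloproteinases, had -2.47 (chr11:118317051-118317550), with an adjusted p of 0.005. An element in intron 1 of Gm30003 had -2.36 (chr5:134747976-134748700) and lay 1015 bp from a TSS, near the limit of the rule. At Ablim1, an actin-binding gene, all 3 members were negative, from -1.86 to -1.20.

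The share of positive members fell with GC content. The median GC content was 47.3% in positive and 51.5% in negative members. The share of positive members was 93.6% (89.8 to 96.3) at 40 to 45% GC, 92.2% (88.9 to 94.8) at 45 to 50%, 84.5% (79.5 to 88.7) at 50 to 55% and 68.1% (57.7 to 77.3) at 55 to 60%. Intergenic elements under the same filters followed the same course, down to 64.3% (53.1 to 74.4) in the last bin, as did intronic elements with AP-1 (70.5%, 54.8 to 83.2). Those with ISRE did not, at 7 of 7 positive at 55 to 60% GC, too few for a narrow interval (59.0 to 100). Among members with an adjusted p of 0.001 or less, 88.9% (75.9 to 96.3) were positive at 55 to 60% GC. Just inside the GC limit, at 58 to 60%, 18 of 30 elements were positive, and just outside it, at 60 to 62%, 8 of 20 were. Just inside and outside the repeat limit, 16 of 17 and 20 of 21 were positive, and just inside and outside the TSS limit 16 of 21 and 19 of 26 were. Beside the repeat limit the positive medians were 2.53 inside and 1.77 outside, against 1.33 over all positive members.

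**Figure D2:**
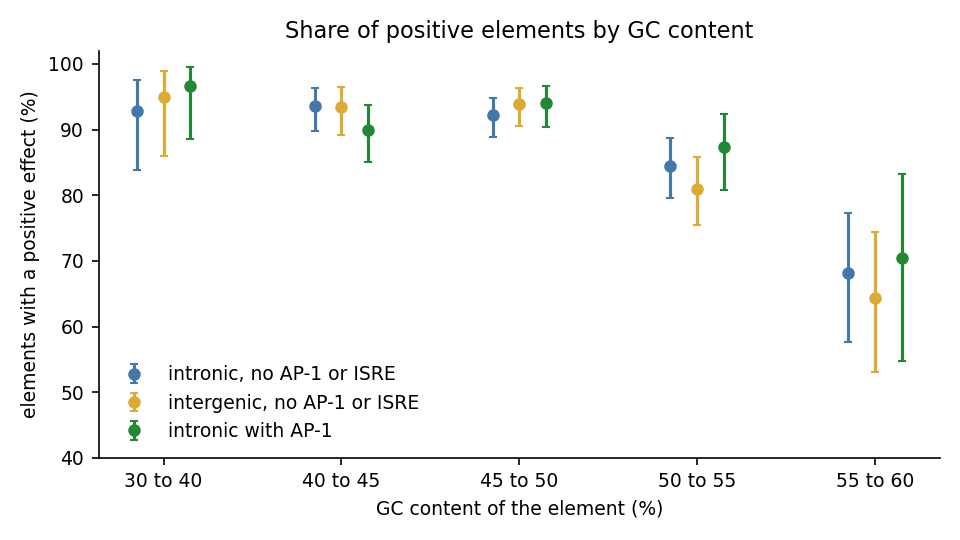
Percentage of elements with a positive effect (y axis, from 40) by GC content of the element (x axis, %), for the intronic elements without AP-1 or ISRE, the intergenic elements under the same filters and the intronic elements with AP-1. Points are shares and bars exact 95% intervals over elements. In all 3 classes the share up to 50% GC runs from 90% to 96.7% and falls to between 64.3 and 70.5% at 55 to 60%.

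Sign and size of the effect also varied with width. Members were 50 to 1350 bp wide with a median of 400 bp. Of 76 members of at most 100 bp, 63.2% (51.3 to 73.9) were positive, against 96.7% (94.2 to 98.4) of 336 members over 200 and up to 400 bp. The narrow members were poor in positive elements on both sides of 50% GC, with 26 of 40 below it and 22 of 36 above it. The median positive effect ran from 1.89 (1.20 to 2.41) in the narrowest class to 1.16 (1.10 to 1.27) in members over 600 bp. Any comparison of effects between groups of members of unlike width carries this gradient, so median widths are given beside the effects of motif groups.

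Members lay in first introns and near start sites more often than intronic windows at large. Of 1030 members, 897 (87.1%) lay in a protein-coding gene and 74 in a lincRNA. A first intron held 358 (34.8%, 31.8 to 37.8). On a regular grid of 35659 intronic windows of 400 bp that pass the same rule, 27.2% (26.7 to 27.7) did. The grid windows had a lower median GC content, 42.5% against 47.8% in members. A distance of at most 5000 bp to a TSS was found for 24.3% (21.7 to 27.0) of members and 16.5% (16.1 to 16.9) of grid windows. It was also found for 198 of 873 intergenic elements under the same filters, 140 of 710 intronic elements with AP-1 and 64 of 279 with ISRE. In members the median distance to the nearest TSS was 12341 bp, and the furthest member lay 626492 bp away. The regions the authors tested are not known here, so the part that their choice plays in these positions was not tested. Members in first introns were 86.6% positive (82.6 to 89.9), and those beyond the second intron 89.8% (86.8 to 92.3). Although no midpoint lay in an exon, 80 members overlapped an exon at some base. By width and distance to an exon, these include the elements of Timp2, Piezo1, Stat3 and G6pc named elsewhere in the text. They also include those of Bcl2 (effect 1.00), Havcr2 (1.00) and Cd44 (0.89).

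Where the promoter of a host gene was itself listed, its elements were mostly negative for members of both signs, as in the whole list. A promoter element of the host gene was listed for 356 of 911 positive members (39.1%), and in 302 of these cases it was negative. Negative members had one in 57 of 119 cases (47.9%), of which 52 were negative. How often genes at large, or hosts of like classes, had a listed promoter element was not counted. These shares thus have no background. Over the whole list, 1081 of 5423 promoter elements (19.9%) were positive. Another listed element lay within 10000 bp of 196 positive and 34 negative members. The nearest of these was positive for 123 of the 196 (62.8%) and for 12 of the 34 (35.3%). It was a promoter element for 84 of the 196 and for 13 of the 34, and signs were not split by this. Of all listed elements 51.3% were positive, and neighbours of like classes were not counted.

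Host genes with several members were few. The members fell in 893 host genes, of which 782 held 1 member, 93 held 2 and 18 held 3 or more. Firre, a gene for a long noncoding RNA of the X chromosome, held 5, all positive from 0.79 to 2.55, of which 4 had a near-identical copy. Sik3, which encodes a salt-inducible kinase, also held 5, with effects of 2.10, 1.03, 0.70, 1.52 and 0.90 and no copies. Rora, which encodes a nuclear receptor of helper and innate lymphoid cells, held 4 at 2.22, 1.03, 1.17 and 0.86. The last 2 lay side by side (chr9:69304351-69304975 and chr9:69305001-69305050), the second only 50 bp wide, so they may not be separate loci. The 4 in 4933407K13Rik ran from 3.43 to 5.07 and all had copies. Gm20388, a gene model whose introns span other genes, held 4 from -1.92 to 1.22, and the lowest of these also lay in Piezo1, which encodes a mechanosensitive channel. Maml2, which encodes a Notch coactivator, also held 4, from 0.77 to 1.39. None of the members in Sik3, Rora, Gm20388 and Maml2 had a copy.

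Motif matches were counted on both strands in members and in windows of the same widths 5000 bp to each side. Of 34 motifs with a match in the windows, 25 were more frequent in positive members than in the 1822 windows beside them, 10 of them by at least 1.5 times, and 6 were at under 0.8 times. The windows had a lower GC content, with a median of 44.7% against 47.3%, so shares at 45 to 50% GC are given too. This alternative was chosen after the data were seen. Unlike the 1822 windows, its windows also had to pass the rule of the set and overlap no listed element, so it changes more than GC content.

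Sites of several lineage and signal factors of T cells were more frequent than in the windows. RUNX (TGTGGTT or TGCGGTT), bound by the factors that set CD4 and CD8 fate, was matched in 19.5% (17 to 22.3) of positive members and 10.6% of the windows. At 45 to 50% GC the shares were 20.8% and 8.31%. NF-kB sites were matched in 19.4% (16.9 to 22.2) against 7.79%, and at 45 to 50% GC in 17.2% against 9.85%. ETS (AGGAAGT or CGGAAGT) was matched in 17.8% (15.4 to 20.4) against 11.5%, and at 45 to 50% GC in 20.5% against 15.4%. STAT sites (TTCCNGGAA) were matched in 2.96% (1.96 to 4.28) against 0.823%, and NR4A sites (AAAGGTCA), bound by orphan receptors that the T cell receptor induces, in 5.27% (3.91 to 6.93) against 1.54%. At 45 to 50% GC the ratio of the shares was smaller for both, with 2.72% against 1.23% for STAT and 6.95% against 3.08% for NR4A. NFAT (TGGAAAA), by contrast, stood at 11.4% against 10.9%. In the central 200 bp, RUNX fell to 12.0%, ETS to 11.5% and NR4A to 3.39%, with 5.71%, 5.46% and 0.941% in the windows. On the grid of 400 bp windows the shares were 9.36% for RUNX, 4.96% for NF-kB, 10.4% for ETS, 1.09% for STAT, 2.14% for NR4A and 11.9% for NFAT.

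Apart from a lower share for ETS, these shares were close to those of the whole list. Over all 5399 listed positive elements the shares were 19.2% for RUNX, 19.9% for NF-kB, 21% (20 to 22.2) for ETS, 2.89% for STAT and 5.41% for NR4A, and in the intergenic positive elements under the same filters 22.1%, 23.3%, 20.8%, 3.27% and 7.46%. The negative members held RUNX in 16% (windows beside them 8.4%), NF-kB in 13.4% (5.88%), ETS in 21.8% (11.8%), STAT in 0.84% (0.84%) and NR4A in 3.36% (1.68%). ETS was thus at least as frequent in negative as in positive members, with intervals that overlap.

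**Figure D3:**
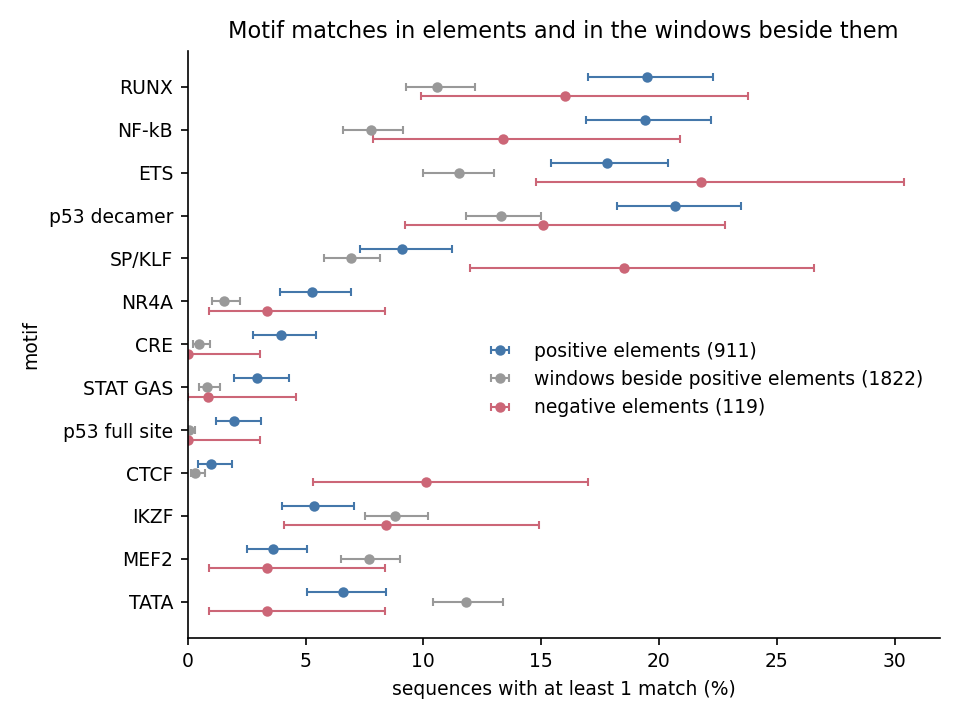
Percentage of sequences with at least 1 motif match on either strand (x axis) for 13 motifs (y axis), in 911 positive members, 1822 windows of the same widths beside them and 119 negative members. Points are shares and bars exact 95% intervals over sequences. The positive members lie right of the windows for RUNX, NF-kB, ETS, NR4A, CRE and STAT and left of them for IKZF, MEF2 and TATA, and CTCF stands out in the negative members at 10.1%.

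Sites of MEF2, the TATA box and IKZF were less frequent than beside the members. MEF2 was matched in 3.62% of positive members and 7.68% of the windows, the TATA box (searched as TATAAAA) in 6.59% and 11.8%, and IKZF (TTGGGAA), the site of Ikaros proteins, in 5.38% and 8.78%. At 45 to 50% GC the order was the same, with 3.02% and 5.23% for MEF2, 5.14% and 9.85% for TATA and 6.04% and 11.7% for IKZF. The shares were near those of intergenic positive elements under the same filters, at 4.58%, 7.59% and 5.89%, and of all listed positive elements, at 3.96%, 8.35% and 7.24%.

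The cyclic AMP response element (CRE, TGACGTCA), which CREB and ATF factors bind, was matched in a small group of positive members. It was found in 36 of 911 positive members (3.95%, 2.78 to 5.43), in 0 of 119 negative members (0 to 3.05%), and in 9 of 1822 windows (0.494%). On the grid of 400 bp windows the share was 0.224%, and at 45 to 50% GC 3.63% of positive members and 0.308% of the windows held it. Intergenic positive elements under the same filters held it in 3.66% of cases and intronic AP-1 elements in 3.74%. All listed positive elements held it in 4.22% of cases and all listed negative ones in 2.46%. Its frequency in positive members was thus near that of like classes and of the whole list. The matches lay near the middle of the element. With the way from midpoint to edge cut into 4 equal steps, 19 of 32 matches in positive members of at least 200 bp without a copy lay in the innermost step, 11 in the next and 1 in each of the others. For comparison, NF-kB had 83 of 226 matches in the innermost step and the CEBP motif (TTGCNNAA), whose share was near that of the windows, 34 of 155.

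The CRE sites of the Pde4 genes are printed because 4 of the 36 elements lay in genes of this family, which encode phosphodiesterases that break down cyclic AMP. The family was noticed after the matches were listed. Capitals mark the CRE, and all are on the plus strand.
Pde4d, intron 7, chr13:109822586-109822615 (effect 2.70): aagaatgccatTGACGTCAgcagagtcatc
Pde4b, intron 3, chr4:102432253-102432282 (effect 1.57): ctctgtcccatTGACGTCAttgggaggttt
Pde4b, intron 7, chr4:102511078-102511107 (effect 0.84): agttatgccatTGACGTCAatggagtcatt
Pde4c, intron 3, chr8:70744308-70744337 (effect 1.04): cccgctccacgTGACGTCAtaaaatgtctg
The sites in intron 7 of Pde4d and intron 7 of Pde4b shared 23 of 30 bases, the CRE included, and the other pairs shared 12 to 19. These are all 4 members in Pde4 genes. The largest effect with a CRE was 3.29 in intron 9 of Sugct, a mitochondrial enzyme gene, and the lowest 0.69 in Cdkl3. Genes of lymphocytes among the 36 included Prkch, which encodes a protein kinase C isoform (2.23), and Cytip, which encodes a cytohesin partner of blood cells (1.19). Akap13, which encodes an anchor of protein kinase A, held one at 1.57.
Sugct, intron 9, chr13:17385107-17385136 (effect 3.29): agggagagaatTGACGTCAaaggggagagt
Prkch, intron 9, chr12:73716047-73716076 (effect 2.23): catgacctcttTGACGTCAgtaactgcttc
Cytip, intron 1, chr2:58157143-58157172 (effect 1.19): agtatgaacacTGACGTCAccctcagagta
Effects with a CRE had a median of 1.37 (1.19 to 1.57) over 35 positive members without a copy, against 1.26 (1.20 to 1.31) over the other 796, at the same median width of 425 bp. Within 300 to 500 bp the order turned, with 1.26 over 13 members with a CRE and 1.31 over 286 without.

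Forms 1 base away from AP-1 were also more frequent. At least 1 such form was found in 76.6% of positive members and 62% of the windows, and in 74.7% of all listed positive elements, so the members were near the whole list in this. Of the 18 forms, 16 were more frequent in positive members than in the windows, 9 of them by at least 1.5 times, and these forms were examined after the pooled share was seen. The furthest apart was TGACGCA, which shares its first 5 bases with the CRE, at 6.15% (4.68 to 7.91) against 0.768% (0.421 to 1.29). It was matched in 1 of 119 negative members. TGACTAA was matched in 16.4% (14.0 to 18.9) of positive members, 5.54% (4.54 to 6.70) of the windows and 8.40% of negative members. TGAGCCA, at 11.5% against 12.3%, was the form with the lowest ratio. The rule of the set removed exact AP-1 sites and left these forms.

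Full p53 sites went with large effects. The p53 factor, which DNA damage and other stress activate, binds a pair of decamers. The single decamer was matched in 20.7% (18.2 to 23.5) of positive members, 13.3% of the windows and 21.3% of all listed positive elements. The pair with no base between was then searched, a choice made after the decamer was seen. The full site was found in 18 of 911 positive members (1.98%, 1.18 to 3.10), in 0 of 119 negative members (0 to 3.05%), in 1 of 1822 windows and in 3 of 35659 grid windows. None of the 18 elements had a near-identical copy. Their effects ran from 1.87 to 3.59 with a median of 2.48 (1.99 to 2.98), against 1.26 (1.19 to 1.31) for the 813 other positive members without a copy. All 18 were among the 200 largest effects of these 831 members, where the effect at rank 200 was 1.76, and 11 were among the first 100. Their median width was 325 bp, and that of the others 425 bp. Among members of 300 to 500 bp, 7 with the site had a median of 2.46 and 292 without it 1.28. The full site was found in 17 of 764 intergenic positive elements (2.23%) and in 2 of 641 intronic positive elements with AP-1 (0.312%). Over the whole list it was found in 77 of 5399 positive elements (1.43%) and 1 of 5122 negative ones.

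**Figure D4:**
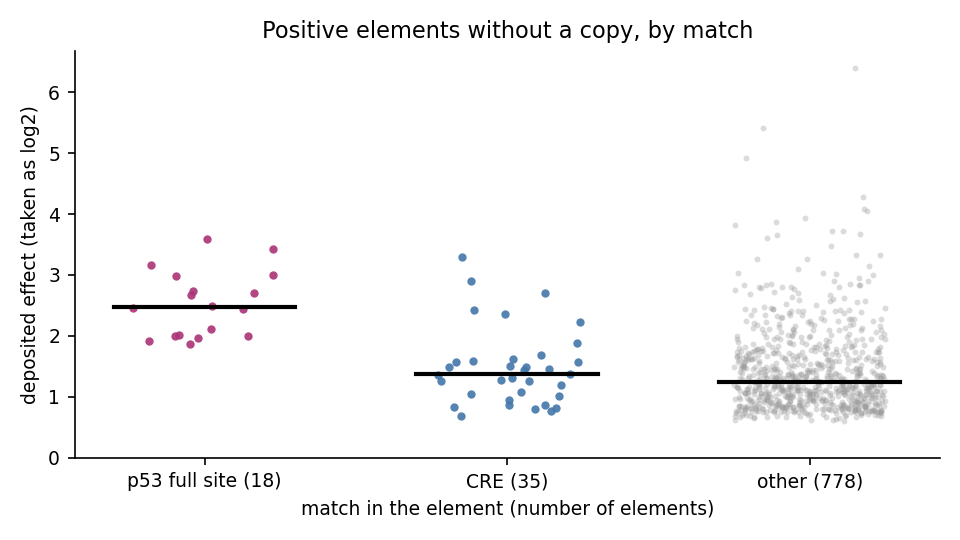
Deposited effect, taken as log2 (y axis), of 831 positive members without a near-identical copy, divided by the match they hold (x axis): 18 with a full p53 site, 35 with a CRE and the other 778. Each point is 1 element and the black line is the median. The points with a full p53 site all lie at 1.87 or above, while those with a CRE start at 0.69.

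The p53 sites below are shown for their likeness to each other, with capitals for the 20-base site on the plus strand.
Sh3gl3, intron 1, chr7:82236109-82236138 (effect 3.59): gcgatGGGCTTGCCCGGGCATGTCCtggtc
Ncoa1, intron 2, chr12:4357502-4357531 (effect 2.50): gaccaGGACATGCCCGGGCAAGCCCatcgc
Tnc, intron 6, chr4:64010139-64010168 (effect 3.42): gaactGGGCAAGTCCAGGCAAGCCCaagcc
Orc5, intron 3, chr5:22542873-22542902 (effect 3.01): gaactGGGCAAGTCCAGACAAGCCCaggca
Fhl2, intron 2, chr1:43143978-43144007 (effect 2.44): gaaatGGGCAAGTCCAGGCAAGTCCaggcc
Rabgap1l, intron 19, chr1:160275399-160275428 (effect 1.91): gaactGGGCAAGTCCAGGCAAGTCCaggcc
Zmat3, intron 1, chr3:32364326-32364355 (effect 2.68): tcccaAGACATGCCTGGGCTTGTTTctcac
Mgat5, intron 1, chr1:127219743-127219772 (effect 2.11): gtgagAAACATGCCCAGGCTAGCCTcgtgg
The 30 bases in Sh3gl3, which encodes an endophilin, and in Ncoa1, a coactivator of nuclear receptors, were the reverse complement of each other in full. A family of 7 sites, in Csmd3, Fhl2, Lhfpl3, Orc5, Rabgap1l, Tnc and Tulp4, shared 25 to 29 of 30 bases in all 21 pairs, with effects from 1.87 to 3.42. These 7 are thus not independent sequences, and neither are the sites of Sh3gl3 and Ncoa1. The median effect and the ranks given above count each of the 18 elements separately. Of the 18 sites, 6 lay wholly in soft-masked repeat sequence, 4 of them in this family, and with a repeat limit of 25% the share of positive members with the site was 1.33%. The sites in Zmat3, which encodes a zinc finger protein known as a p53 target, and in Mgat5, which encodes a glycan-branching enzyme of T cells, were outside the family. Zmat3 lay 1295 bp from a TSS, and its site 15 bp from the element's midpoint.

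Other motifs went with smaller differences in effect. Positive members with an NF-kB site had a median of 1.11 (1.05 to 1.18) and those without 1.31 (1.26 to 1.36), but they were wider (500 bp against 400 bp). Within 300 to 500 bp the medians were 1.18 and 1.32. Members with an ETS site had 1.13 (1.06 to 1.24) against 1.31 (1.25 to 1.36), at 525 against 400 bp, and within 300 to 500 bp 1.24 against 1.31. Members with an NR4A site had 1.48 (1.19 to 1.83) against 1.26 (1.20 to 1.31), at 500 against 400 bp, and within 300 to 500 bp 1.89 over 14 members against 1.29. For RUNX the medians were 1.26 and 1.27, at 525 against 400 bp, and within 300 to 500 bp 1.21 and 1.32. These medians leave out members with a near-identical copy.

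The STAT sites included a triplet in Sik3. A 250 bp element in its first intron (chr9:46116901-46117150, effect 1.52) held 3 STAT matches, and another Sik3 element of effect 0.90 held 1.
Sik3, first match, chr9:46116957-46116985: actgtacaatTTCCAGGAAgcagtgcaac
Sik3, second match, chr9:46117000-46117028: actgtacaatTTCCAGGAAgcagtgtgac
Sik3, last match, chr9:46117079-46117107: taatgacaatTTCCAGGAAgcagtgtgac
The first match and the second shared 27 of 29 bases. Among the 27 positive members with a STAT site, the largest effects without a copy were 2.80 in Cx3cr1 and 2.00 in Dab2. T cell genes among them were Havcr2, which encodes the inhibitory receptor TIM-3 (0.85), and Lck, which encodes the first kinase of the T cell receptor (0.62), the lowest of the group.

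CTCF matches were more frequent in negative members. CTCF, the insulator factor, was matched in 12 of 119 negative members (10.1%, 5.32 to 17), 9 of 911 positive members (0.988%), 0.420% of the windows beside negative members and 0.317% of grid windows. At 50 to 60% GC, 10 of 70 negative members (14.3%) and 5 of 282 positive members (1.77%) held it. Without members that overlap an exon the negative share was 6.48% (2.65 to 12.9). Among members whose adjusted p was 0.001 or less it was 6.25%, with too few negative members for a narrow interval (0.158 to 30.2). Intergenic negative elements under the same filters held it in 13.8% of cases and intronic AP-1 negative elements in 8.70%. Over the whole list, 4.3% of negative and 1.72% of positive elements held it. Effects of the 12 ran from -1.92 to -0.82 with a median of -1.10. The SP/KLF site (GGGCGG) was also more frequent in negative members, at 18.5% against 9.11% in positive members. At 50 to 60% GC it was matched in 30.0% against 19.1%. Sites of both signs are shown, in the orientation of the motif with CTCF letters in capitals.
Gm20388 and Piezo1, plus strand, chr8:122501046-122501075 (effect -1.92): gacctatggCCACCAGGGGGCagtctagac
Reg4, intron 2, plus strand, chr3:98227417-98227446 (effect -1.48): taagtgttcCCACCAGGGGGCgcatgtcgg
Gng7, intron 2, minus strand, chr10:80988271-80988300 (effect -1.17): tggacatggCCACCAGGGGGCagcacacgc
Cyfip2, intron 8, minus strand, chr11:46275510-46275539 (effect 0.76): gctcagaggCCACCAGGGGGCgatggaagc
Zswim5, intron 2, minus strand, chr4:116951782-116951811 (effect 3.00): taggactggCCACTAGGTGGCcactgtatc
The 12 matched letters were the same in 4 members, those of Gm20388, Reg4, a secreted lectin gene, Gng7, a G protein subunit gene, and Cyfip2, an actin regulator gene. The first 3 of these were negative and the member in Cyfip2 was positive.

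Genes of T cell function held members more often than protein-coding genes at large. In 8 lists of T cell genes, 46 of 276 genes (16.7%) held a member in an intron, against 803 of 21911 protein-coding genes (3.66%). These genes held 63 members, at 4.03 per Mb of intron against 0.937 over all protein-coding genes, and 60 of the 63 were positive. In the order described below, the 8 lists held 6, 1, 6, 8, 4, 6, 4 and 1 intronic elements with AP-1. Those with ISRE numbered 4, 2, 0, 3, 0, 2, 1 and 3. The 8 lists span 15.6 Mb of intron, and all protein-coding genes, at 957 Mb, held 617 and 237 of these. A higher rate per Mb in the T cell lists was thus shared with these classes. In 4 lists of other cell types, 6 of 79 genes (7.59%) held 7 members, at 0.353 per Mb. Neuron genes made up 17.8 of the 19.8 Mb of intron in these, at 0.113 members per Mb, while B cell markers had 2.49 and hepatocyte markers 4.78 per Mb from 3 and 2 members. A member inside a gene is not shown to act on it, and the tested regions are not known. The median effect of positive members in the 8 lists was 1.02, against 1.30 in all protein-coding genes.

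**Figure D5:**
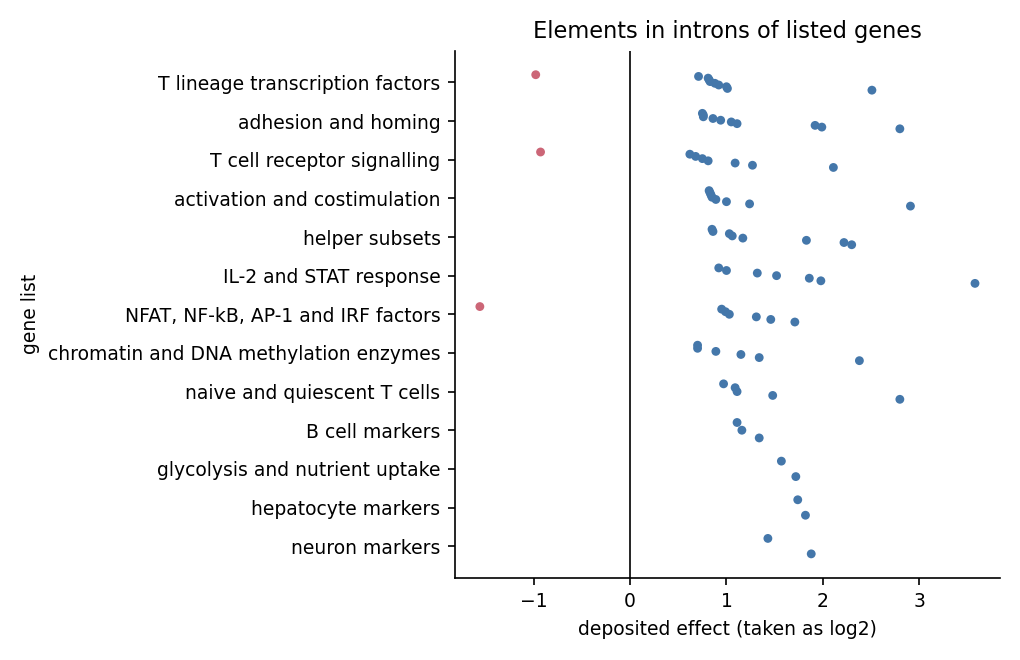
Deposited effect, taken as log2 (x axis), of the members in introns of listed genes, 1 point per element, by gene list (y axis). Positive elements are blue and negative ones red. The negative points include those of Irf2 at -1.56 and Elf4 at -0.98, and the largest value is 3.58 in Cdk6, an element with near-identical copies.

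Among genes of activation and costimulation, 5 of 44 held 8 members, all positive. Tnfsf8, which encodes the ligand of CD30, had 2.91 in intron 2 with a deposited adjusted p of 1.9e-12, and Cd44, which encodes the hyaluronan receptor of activated cells, had 1.24 and 0.89. Havcr2 had 1.00 in intron 4 and 0.85 in intron 3. Ctla4, which encodes an inhibitory receptor, had 0.84 in its last intron (chr1:60913376-60913650), and the adhesion receptor gene Cd2 had 0.83 and 0.82. Apart from the element of Tnfsf8 these values lay below the median of positive members.

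In T cell receptor signalling, 7 of 35 genes held 8 members, of which 7 were positive. Fyn, which encodes a Src family kinase, had 2.11 in intron 3, 1223 bp from a TSS, and 0.81 in intron 2. Sos1, which encodes an exchange factor of RAS, had 1.27, and Prkcq, which encodes protein kinase C theta, had 1.09. Txk, which encodes a tyrosine kinase of T cells, had 0.75 and Lck had 0.62. Apart from the larger value in Fyn, the values named here lay below the median of positive members.

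For the NFAT, NF-kB, AP-1 and IRF factors, 5 of 40 genes held 7 members. Nfatc1, which encodes a calcium-regulated factor, had 1.71 in intron 2. Nfkb1, which encodes the p50 subunit, had 1.46 and 1.31 in intron 6, and the second of these (chr3:135640201-135640575) itself held an NF-kB match. Tnfaip3, which encodes the NF-kB inhibitor A20, had 1.03 in an element with an NF-kB match. Bach2, a repressor of effector genes, had 0.99 and 0.95. Irf2 had -1.56 in intron 1 (chr8:46747526-46748300), the lowest value in the gene lists.

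T lineage transcription factors held 10 members in 8 of 33 genes, 9 of them positive. Among its members, not all of which are named, that of Tox, which encodes a factor of thymocytes and exhausted cells, had 1.01, and Elf1 1.00 and 0.83. Elf4, a factor of T cell quiescence, held a negative member at -0.98 and a positive one at 0.88, both in intron 1. Runx2 had 0.92, Lef1 0.82, Etv6 0.81 and Ikzf2 0.71. Helper subset genes held 8 positive members in 4 of 35 genes. Stat4, which acts downstream of interleukin-12, had 2.30 in intron 4 with a RUNX match (chr1:52052901-52053275) and 1.83 in intron 2 with NF-kB and NR4A matches. Besides the 4 in Rora, Tgfbr2, a receptor gene of TGF-beta, had 1.06 and Smad3, its signal mediator, 0.85.

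Genes of the IL-2 and STAT response had the largest list member. Cdk6, which encodes a kinase that starts the cell cycle, had 3.58 in intron 4 (chr5:3452101-3452400), in an element with 7 near-identical copies elsewhere. Without copies the largest list member was that of Tnfsf8. Bcl2l11, which encodes the death protein BIM, had 1.98, Bcl2l1, which encodes the survival protein BCL-XL, had 1.86, and Bcl2 had 1.00 and 0.92. Stat3 had 1.52 and Jak2 had 1.32. In all 6 of 30 genes held 7 members, at 7.07 per Mb of intron, all positive, and genes of survival and of death lay among them alike.

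Genes of naive and quiescent T cells held 5 positive members in 4 of 29 genes, led by 2.80 in intron 5 of Klf12, a repressor of the KLF family. The Klf12 element was 49.3% soft-masked, near the repeat limit. Dusp1, which encodes a MAP kinase phosphatase, had 1.48, and Klf7 had 1.11 and Foxp1 1.09 and 0.97. Genes of adhesion and homing held 10 positive members in 7 of 30 genes. Cx3cr1, a chemokine receptor gene of effector cells, had 2.80 with a deposited adjusted p of 8.1e-11 and 1.11. Ccr9, the receptor gene for gut homing, had 1.99 and 1.05, and Itga4, which encodes the alpha-4 integrin, had 1.92 with a RUNX match. The integrin genes Itga6 and Itgal had 0.94 and 0.76.

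The remaining lists held few members. Chromatin and DNA methylation enzymes had 6 in 5 of 34 genes, with 2.38 in Smarca4, a remodeller ATPase gene, and 1.34 in Hdac4, a histone deacetylase gene. Glycolysis had 1.72 in Pfkfb3 and 1.57 in Pfkp, which encode a regulator and a form of phosphofructokinase. No member lay in the 36 interferon response genes, from which the rule of the set removes ISRE elements, nor in the 18 myeloid markers. B cell markers had 3, with 1.34 and 1.16 in Ebf1 and 1.11 in Blk. Neuron markers had 1.88 in Cntnap2, in an element with 1 near-identical copy, and 1.43 in Dlg2. Hepatocyte markers had 1.82 in G6pc and 1.74 in an element that lies in both Gm20425 and Trf. With so few members, these lists show single loci and no pattern.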

How the data were processed

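STARR-seq libraries of 2 biological replicates of 1 group were measured, and per the labels the authors deposited 1 element list for both together on mm10. The authors' deposited effect was taken as log2, its base being not given in the sources used here, and their deposited p-value and adjusted p-value were used as listed on the linear scale. The aligner, the element caller, the input library and the depth are not given in the sources used here. The labels state library sizes from 200 to 400 and 30 µg of input nucleic acid. The deposited last column, of another kind, equalled the element width, and a constant score column was not used. Starts were counted from 1.

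From this list, position and sequence were computed with the GRCm38.p6 sequence, to which mm10 corresponds, and GENCODE M21 basic transcripts in Python 3.11.15 with pysam 0.24.0, pandas 2.3.3, NumPy 2.4.6 and SciPy 1.17.1. Copies were searched with minimap2 2.31. Matches to 37 motif consensus sequences, plus the full p53 site added later, were counted on both strands, and 15 gene lists were read against intron positions, with 4 listed symbols not found. Motif search and intervals were tested on simulated data. The members, motifs, lists and naming rule were chosen with earlier results of these data known. The genes named were the 10 largest and 5 lowest effects without a copy, up to 3 members per list by absolute effect, and the 5 hosts with most members, ties broken by summed absolute effect. Some of these are not reported here. Other list members, and the sites and hosts named for a motif, were chosen after their values were seen. With 1 pooled value per element no test over samples could be made. Alternatives changed the TSS window, the adjusted p, the GC and repeat limits, copies, width, exon overlap, the window searched for motifs and the gene types that can host. Other elements of the list were used as comparison only.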

Additional observations from a re-analysis of the deposited data

How the results depend on the processing

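In 128 of the 143 values recomputed under other settings, the result moved by less than its interval or, for counts, by less than 1.5 times. The deposited effects are fixed, so these settings change which elements enter and cannot turn a sign. With adjusted p limited to 0.001, 604 elements remained, 97.4% of them positive with a median positive effect of 1.55, 88.9% were positive at 55 to 60% GC, 23.0% of positive elements held a RUNX match and 29 T cell list genes held an element. With a 2500 bp TSS window, 31.5% lay in a first intron. With GC under 55%, 90.5% were positive, as were 90.4% of elements of at least 200 bp. Without near-identical copies the median positive effect was 1.27, and without looser copies 1.25. In the central 200 bp, 13.9% of positive elements held an NF-kB match, 12.0% RUNX, 11.5% ETS and 3.39% NR4A, where a shorter window was searched. The looser copies, the windows under the same rule, the full p53 site and the 45 to 50% GC bin were alternatives chosen after seeing the data. Against windows that themselves pass the rule, the ratio of shares was 2.08 for RUNX, 2.45 for NF-kB, 21.7 for CRE and 21.7 for the full p53 site, in place of 1.84, 2.49, 8 and 36. No paired analysis was possible because the study has 1 group and the list holds 1 value per element. The depth is unknown, and unlisted regions were not analysed here.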
